A study of Sus scrofa with 5 samples.

Results

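The genes CNOT8, SAMD4B, RBM5 and ADAT1 act in the processing, translational control or decay of RNA, and each was paired with a long intergenic non-coding RNA (lincRNA) transcribed from the next locus on the same scaffold. The 4 pairs, 8 transcripts of 45614 in the table, were chosen by the roles of their genes from a list of 12 pairs. That list had been selected on measured values, a negative correlation between the levels of lincRNA and neighbouring gene. The opposite movement of gene transcript and lincRNA is therefore how the pairs were found, and the values below describe it without a test. All 8 transcripts had a mean FPKM of at least 1 over the 3 stages. Gene names come from the list of pairs, since the table itself holds identifiers and loci only, and could not be checked against sequence here.

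The samples were wild type additional molar germs, the permanent molars that form behind the deciduous teeth, taken with the dental lamina from the lower jaws of miniature pig embryos at embryonic day 50 (E50), 60 (E60) and 70 (E70). RNA was pooled within a stage, so no value belongs to a single animal. The labels name 1 sample for E50, 1 for E60 and 3 for E70. The table holds 1 value per stage, and the E70 value is the authors' value for the stage. No spread between replicates can be given for any value, and the number of reads behind each transcript's value is unknown.

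Messenger RNAs are commonly destroyed after their poly(A) tail has been shortened, and the CCR4-NOT complex is a major enzyme of that shortening in animal cells. RNA-binding proteins decide which messages are repressed or spliced in a given way, and enzymes that modify transfer RNA act on the decoding side of translation. LincRNAs are transcribed outside protein-coding genes, and some act on neighbouring genes while for many no role is known.

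CNOT8 encodes a catalytic deadenylase subunit of the CCR4-NOT complex. Its transcript TCONS_00641811, the only one at its locus (WZSP scaffold 36, 3576378 to 3596044, introns included), went from an FPKM (sequenced fragments per length of transcript, scaled to the size of the library) of 2.54 at E50 to 38.1 at E60, then to 0.145 at E70. The level was thus high at E60 and low at both other stages, and lower at E70 than at E50. The paired lincRNA TCONS_00641199 (scaffold 36, 3601340 to 3649513) stood at 35.6 FPKM at E50, only 0.441 at E60, then 22.3 at E70. The lincRNA was high where the gene transcript was low. On the log2(FPKM + 1) scale, which understates changes of low values and is used for all changes, the CNOT8 transcript changed by 3.47 in the first step (E50 to E60) and by -5.09 in the second (E60 to E70), and the lincRNA by -4.67 and 4.01.

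SAMD4B is a Smaug family protein with a SAM domain that binds RNA and represses translation. Its transcript TCONS_01103378 (scaffold 834, 223508 to 249987) was measured at 1.21 FPKM at E50, 18.4 at E60, then 0.992 at E70. Levels at E50 and E70 were close to each other and E60 stood above both. The lincRNA TCONS_01102902 (scaffold 834, 250159 to 263866) reached 17916 FPKM at E50, but 493 at E60, then 14287 at E70. This lincRNA was the most abundant of the 8 transcripts at every stage, and its lowest stage was again E60. Changes were 3.13 and -3.28 for the gene transcript and -5.18 and 4.85 for the lincRNA.

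RBM5 is an RNA-binding regulator of splicing. TCONS_01082326, the only transcript at its locus of 110383 bp (scaffold 799, 638272 to 748654), measured 0.728 FPKM at E50, then 42.9 FPKM at E60 but 3.40 FPKM at E70. It was the highest of the 4 gene transcripts at E60 and at E70. The lincRNA TCONS_01082456 (scaffold 799, 596665 to 629121) measured 22.3 FPKM at E50, then 0.568 at E60 but 37.3 at E70. Unlike the other 3 lincRNAs, it was higher at E70 than at E50 in the FPKM as deposited. As a share of the summed FPKM of all transcripts it was lower at E70 (4.19e-05%) than at E50 (4.98e-05%), as were the other 3. The changes of the gene transcript were 4.67 and -3.32 and those of the lincRNA -3.89 and 4.61.

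ADAT1 is an adenosine deaminase that edits a transfer RNA. Its transcript TCONS_01007547 (scaffold 685, 378703 to 419012) had the values 0.213 FPKM (E50), 9.48 (E60) and 0.341 (E70). It was the lowest of the 4 gene transcripts at E50 and E60. The lincRNA TCONS_01005398 (scaffold 685, 421658 to 447914) had the values 1501 FPKM (E50), 1.71 (E60) and 890 (E70). It spanned a wider range than the other 3 lincRNAs, with changes of -9.11 and 8.36 against 3.11 and -2.97 for the gene transcript.

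**Figure D1:**
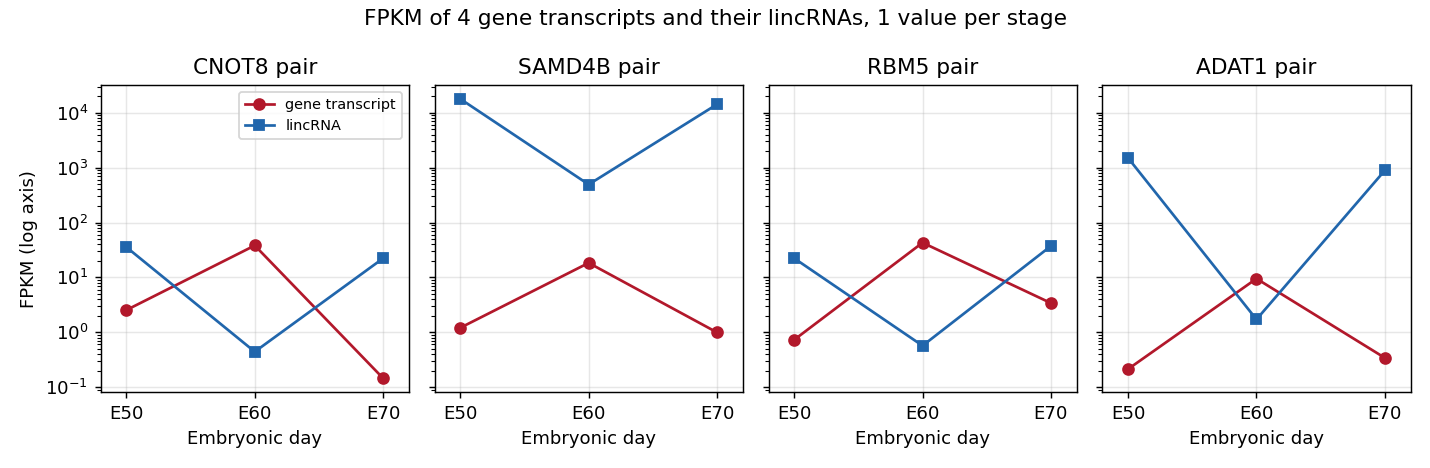
FPKM (log axis) of the gene transcript (red circles) and the lincRNA (blue squares) of each pair at E50, E60 and E70, with 1 value per stage and no error. The gene transcripts peak at E60, between 9.48 and 42.9, where the lincRNAs are lowest, and only in the SAMD4B pair does the lincRNA, at 493, stay above the gene transcript at E60. In sums over the loci at E60, the lincRNA locus is above the gene locus for RBM5 and ADAT1 as well.

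FPKM is a level per length of transcript, so the members of a pair can be set side by side. At E50 and E70 the lincRNA was above the gene transcript in all 4 pairs. At E50 its FPKM was 14.0 times that of the gene transcript in the CNOT8 pair, 30.6 times in the RBM5 pair, 7045 times in the ADAT1 pair and 14866 times in the SAMD4B pair. The ADAT1 and SAMD4B ratios divide by low values, 0.213 and 1.21 FPKM, which were 10.5% and 1.90% of their loci. In locus sums at E50 the lincRNA locus stood at 3668 against 2.03 for ADAT1, and at 26243 against 63.5 for SAMD4B. At E60 the order was turned in 3 of the 4 pairs, with the gene transcript 86.4 times the lincRNA for CNOT8, 75.5 times for RBM5 and 5.54 times for ADAT1. In the SAMD4B pair the lincRNA was still 26.9 times the gene transcript at E60. A scaling between stages moves both members of a pair alike and leaves these ratios as they are, apart from quantile normalization, which was not applied to them. The turned order at E60 is that of the named transcripts. In sums over the loci at E60, the lincRNA locus was above the gene locus for RBM5 (696 against 42.9) and ADAT1 (500.0 against 38.1). The same held for SAMD4B (659 against 29.5), while for CNOT8 the lincRNA locus was at 31.9 and the gene locus at 38.1.

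The place of each transcript among all transcripts above 0 at the same stage does not depend on a scaling factor, but the number of such transcripts was 20727 (E50), 37539 (E60) and 19392 (E70), so percentiles of different stages refer to lists of different length. The CNOT8 transcript was at percentile 57.4 at E50, percentile 86.6 at E60 but percentile 13.9 at E70. RBM5 was at percentile 34.4, 87.9 and 56.2 at these stages. Counted from the highest FPKM, the SAMD4B lincRNA ranked 165 (E50), 567 (E60) and 295 (E70), each within the top of its list (percentiles 99.2, 98.5 and 98.5). The CNOT8 lincRNA ranked 4331 at E50 (percentile 79.1) against 33906 at E60 (percentile 9.7), and the RBM5 lincRNA 4983 (percentile 76.0) against 33194 (percentile 11.6).

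Gene transcripts were higher by 2-fold or more at E60 compared with E50 in 4 of 4 cases, beside 56.0% of all 45614 transcripts, and 4 of 4 were lower by as much at E70 than at E60, beside 56.1%. LincRNAs were lower by 2-fold or more at E60 than at E50 in 4 of 4 cases, beside 14.1% of all transcripts, and 4 of 4 were higher at E70 than at E60, beside 14.3%. A rise followed by a fall, both of 2-fold or more, occurred in 51.3% of all transcripts, and a fall followed by a rise in 10.4%. Nothing is read from these shares, since the pairs were selected on the same stages. After quantile normalization of the stages, 30.8% of all transcripts were higher by 2-fold or more and 27.0% lower at E60 than at E50. From E60 to E70, 30.3% were lower by as much. The count of gene transcripts past 2-fold was then 2 of 4 in each step, with SAMD4B and ADAT1 below it. With the stages scaled to the same summed FPKM, a setting chosen after seeing the data, 74.5% of all transcripts were higher by as much and 8.77% lower at E60 compared with E50. In that setting 2 of 4 lincRNAs were higher by 2-fold or more in the second step, beside 7.87% of all transcripts. The SAMD4B lincRNA then changed by 0.02 and the CNOT8 lincRNA by 0.67.

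The median change over all transcripts was itself 1.38 in the first step and -1.38 in the second. Relative to this median, the changes of the gene transcripts from E50 to E60 were 2.09 for CNOT8, 1.76 for SAMD4B, 3.29 for RBM5 and 1.74 for ADAT1. Those of the lincRNAs were -6.04, -6.56, -5.27 and -10.49 in the same order. Gene transcripts and lincRNAs kept their direction against the median of all transcripts under each scaling and pseudocount tried, though some of these differences nearly vanished. ADAT1 was -0.09 from the median in the second step after quantile normalization. With a pseudocount of 0.1 the median in the first step was 3.23, and CNOT8 was 0.62 and SAMD4B 0.59 above it, while RBM5 was -0.21 from the median in the second step. The pooled tissue holds several cell types, and fewer cells of a type cannot be told apart from less RNA per cell.

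Other transcripts were assembled at the same loci as the members, and their levels did not all follow them. Exons are not given, so whether these transcripts share exons or reads with the members could not be examined. The SAMD4B locus holds 4 transcripts. TCONS_01103689 was the most abundant of them at E50 and E70, with 62.3 FPKM at E50 against 0.383 at E60, and 65.0 FPKM at E70. This isoform was high at the stages at which TCONS_01103378 was low, and its lowest stage was E60, as in the lincRNA. TCONS_01103378 made up 1.90% of the summed FPKM of the locus at E50, then 62.3% at E60, but 1.44% at E70. Summed over the SAMD4B locus, FPKM was 63.5 (E50), 29.5 (E60) and 69.0 (E70), a change of -1.08 and then 1.20, opposite to the transcript paired with the lincRNA, whereas with the stages scaled to the same summed FPKM the locus changed by 2.70 and -3.54.

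At the ADAT1 locus, also with 4 transcripts, the summed FPKM was 2.03 (E50), 38.1 (E60) and 1.69 (E70). It followed the named transcript, with changes of 3.69 and -3.86, which kept their sign under every scaling tried but were 0.73 and -0.63, below 2-fold, after quantile normalization. TCONS_01007547 held 10.5% of the locus at E50, then 24.9% at E60, then 20.2% at E70, and was not the most abundant transcript at any stage. TCONS_01007545 led at E50 with an FPKM of 1.82 and at E70 with 1.35, and TCONS_01005291 led at E60 with 17.1 and was listed at 0 at both other stages.

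The lincRNA loci hold 6 transcripts beside CNOT8, 9 beside SAMD4B, 8 beside RBM5 and 7 beside ADAT1. Of the 26 transcripts other than the named lincRNAs, 8 had an FPKM lower by 2-fold or more at E60 as deposited, compared with E50, and 15 a higher one, beside 14.1% and 56.0% of all transcripts. At the locus beside CNOT8, TCONS_00641199 led at E50 with 57.6% of the summed FPKM, held 1.38% at E60, where TCONS_00641829 led with an FPKM of 14.2, and held 35.3% at E70, where TCONS_00641200 led with 40.9. The sum over this locus, as deposited, was 61.8 (E50), 31.9 (E60) and 63.2 (E70), a narrower range than that of the named lincRNA.

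At the lincRNA locus beside RBM5, TCONS_01082456 was a minor transcript, with 3.03% of the summed FPKM at E50, then 0.0815% at E60, then 0.488% at E70. TCONS_01082648 led at E50 with an FPKM of 447 and at E60 with 356, and TCONS_01082653 led at E70 with 5474. The sum as deposited was 736 (E50), 696 (E60) and 7646 (E70), close at the first 2 stages and highest at the last.

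Beside ADAT1, TCONS_01005398 held 40.9% of its locus at E50, then 0.342% at E60, then 18.6% at E70. TCONS_01008393 led at E50 with an FPKM of 1938, TCONS_01007548 at E60 with 339 and TCONS_01008390 at E70 with 1957. The sum as deposited was 3668 (E50), 500.0 (E60) and 4791 (E70), lowest at E60 like the named lincRNA. The SAMD4B lincRNA was the leading transcript of its locus at all 3 stages, with 68.3%, 74.8% and 98.6% of sums of 26243, 659 and 14488.

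By summed FPKM, 3 of the 4 gene loci were higher by 2-fold or more at E60 than at E50, beside 48.9% of all 18696 loci, and the same number was lower at E70 than at E60, beside 49.0%. SAMD4B was the exception in both steps. After quantile normalization the count was 2 of 4 in each step, without ADAT1, beside 27.4% and 27.7% of all loci, and with equal summed FPKM it was 4 of 4, beside 70.6% and 71.4%. Of the lincRNA loci, 2 of 4 were lower by 2-fold or more at E60 than at E50, beside 17.1% of all loci, and 3 of 4 were higher at E70 than at E60, beside 17.4%. After quantile normalization the count of lincRNA loci was 2 of 4 in each step, beside 32.0% and 27.9% of all loci, those beside CNOT8 and SAMD4B, while the locus beside ADAT1 changed by -0.82 and 0.12 and that beside RBM5 by 0.42 in the second step. Median scaling gave 4 of 4 in each step, beside 24.9% and 25.4% of all loci. With equal summed FPKM the count was 1 of 4 in the first step and 0 of 4 in the second, beside 5.48% and 4.47%. The directions of the lincRNA loci depend on the scaling, because with equal summed FPKM at each stage the loci beside CNOT8, RBM5 and ADAT1 were higher at E60 than at E50 and lower at E70 than at E60, the locus beside SAMD4B was lower at E70 than at E60, and with quantile normalization the locus beside RBM5 was higher at E60 than at E50.

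**Figure D2:**
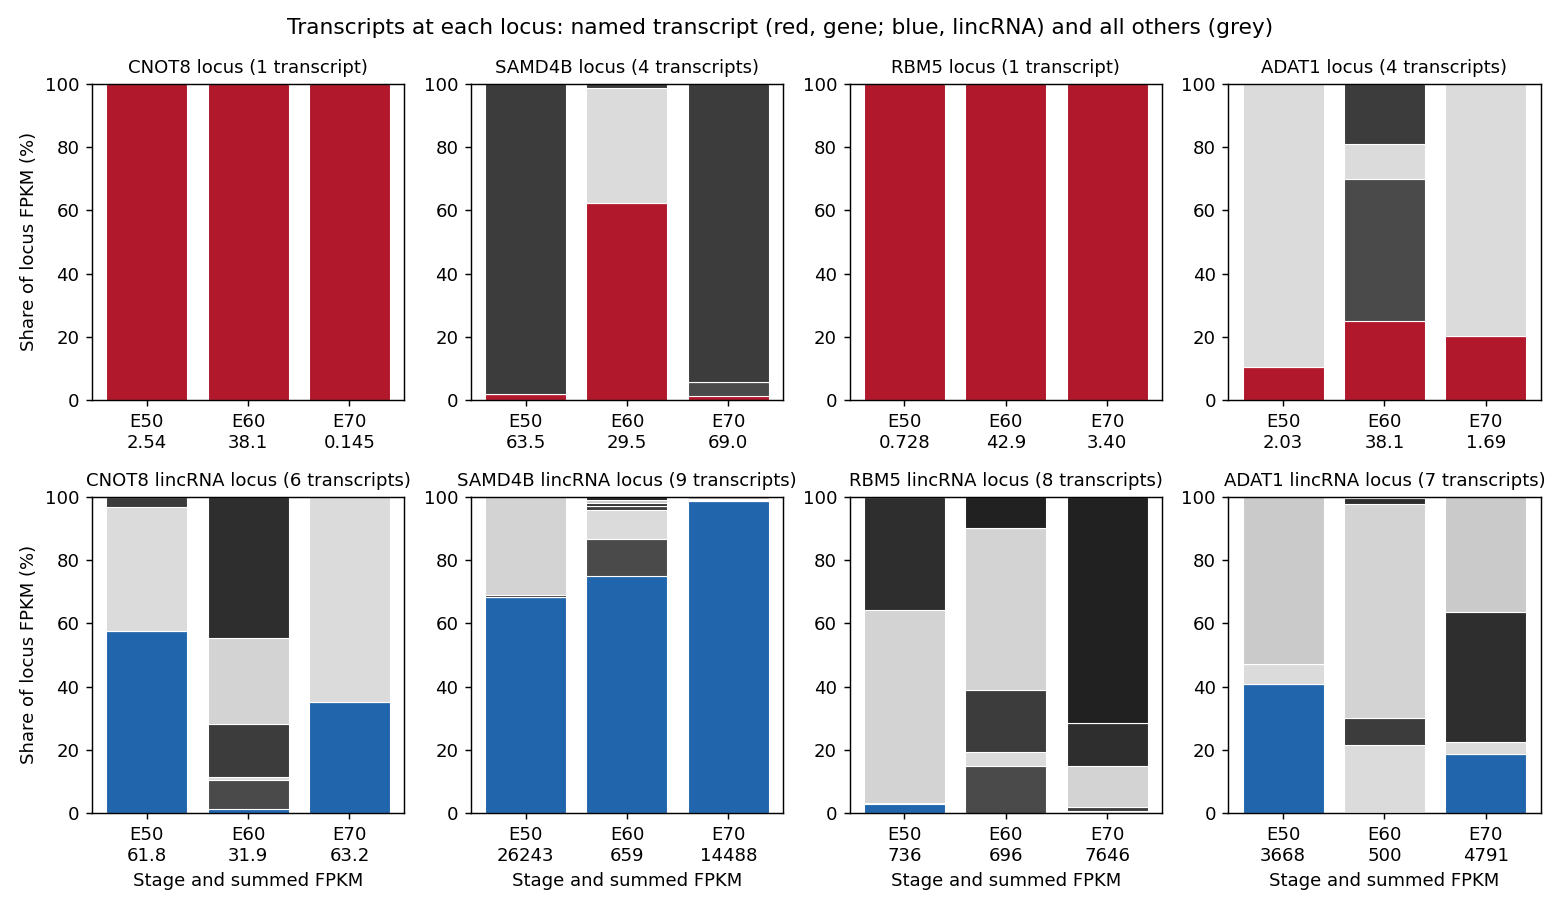
Share (%) of each transcript in the summed FPKM of its locus at E50, E60 and E70, with the sum under each bar, for the 4 gene loci (top, named transcript in red) and the 4 lincRNA loci (bottom, named lincRNA in blue), all other transcripts in grey. The SAMD4B transcript takes 62.3% of its locus at E60 against 1.90% at E50, and the lincRNA beside RBM5 at most 3.03% of its locus.

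The transcript with the highest FPKM differed between E50 and E60 at 4 of the 6 loci with several transcripts, between E60 and E70 at 5 of 6, and between E50 and E70 at 3 of 6. Among 7242 loci with several transcripts and a sum above 0 at all stages, the leading transcript differed in 71.4%, 70.8% and 29.6%, respectively. A change of the leading transcript at E60 is thus frequent in the table as a whole.

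Gene and lincRNA loci were immediate neighbours on their scaffolds in all 4 pairs. They were separated by 171 bases in the SAMD4B pair, 2645 in the ADAT1 pair, 5295 in the CNOT8 pair and 9150 in the RBM5 pair. The lincRNA lay at the higher coordinates except beside RBM5, and strands are not given in the table. In the pig reference assembly Sscrofa11.1, used for names only, the neighbouring protein-coding genes are GEMIN5 and FAXDC2 for CNOT8, GMFG and PAF1 for SAMD4B, RBM6 and SEMA3F for RBM5, and KARS and GABARAPL2 for ADAT1. Which WZSP locus corresponds to which of these genes was not determined.

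The next loci on either side, at most 2 per side, numbered 15. In summed FPKM as deposited, 7 of these were higher by 2-fold or more at E60 than at E50, while 3 were lower, beside 48.9% and 17.1% of all loci. Sums of the neighbouring loci are given as deposited throughout. Their order of stages may depend on the scaling and was not followed under the others. Beyond the CNOT8 lincRNA locus and 103 bases from it, the last locus of the table on scaffold 36 (3649617 to 3697998) had a sum of 240 at E60 and was listed at 0 at E50 and E70. Next to the ADAT1 locus, at a distance of 6979 bases, the locus at 361651 to 371723 of scaffold 685 had a sum of 452 at E60 and was listed at 0 at both other stages. Both loci had their highest sum at E60, whereas the neighbours of these genes differed among themselves. The loci on the other side of CNOT8 (3536997 to 3567758 and 3510846 to 3533181) were highest at E70 in the FPKM as deposited. Their sums were 7.55, 11.8 and 40.6 and 3.73, 15.0 and 37.4 over the stages. Around ADAT1, the locus at 329976 to 353199 was also highest at E60 with sums of 0.641, 90.5 and 35.0, that at 901451 to 1172914 was lowest at E60 with 134, 10.1 and 309, and that at 462336 to 466675 was listed at 0 throughout. On the far side of the SAMD4B lincRNA, the locus at 273151 to 284540 of scaffold 834 had sums of 231 (E50), 46.4 (E60) and 3391 (E70). This was the order of stages of the SAMD4B locus as deposited, which turned with equal summed FPKM. Of the other loci around the SAMD4B pair, that at 194392 to 201536 had a sum of 22.0 at E60 and was listed at 0 at both other stages, that at 268233 to 270023 had 1.07, 0.832 and 0, and that at 173094 to 178723 was listed at 0 throughout. The loci nearest to RBM5 beyond its higher end (scaffold 799, 770999 to 782000 and 787042 to 799778) had sums of 15.4 and 7.13 at E60 and were listed at 0 at E50 and E70. Those beyond its lincRNA had sums of 3.95, 1.27 and 0 (537537 to 562860) and of 0, 0.678 and 0 (530963 to 534207).

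**Figure D3:**
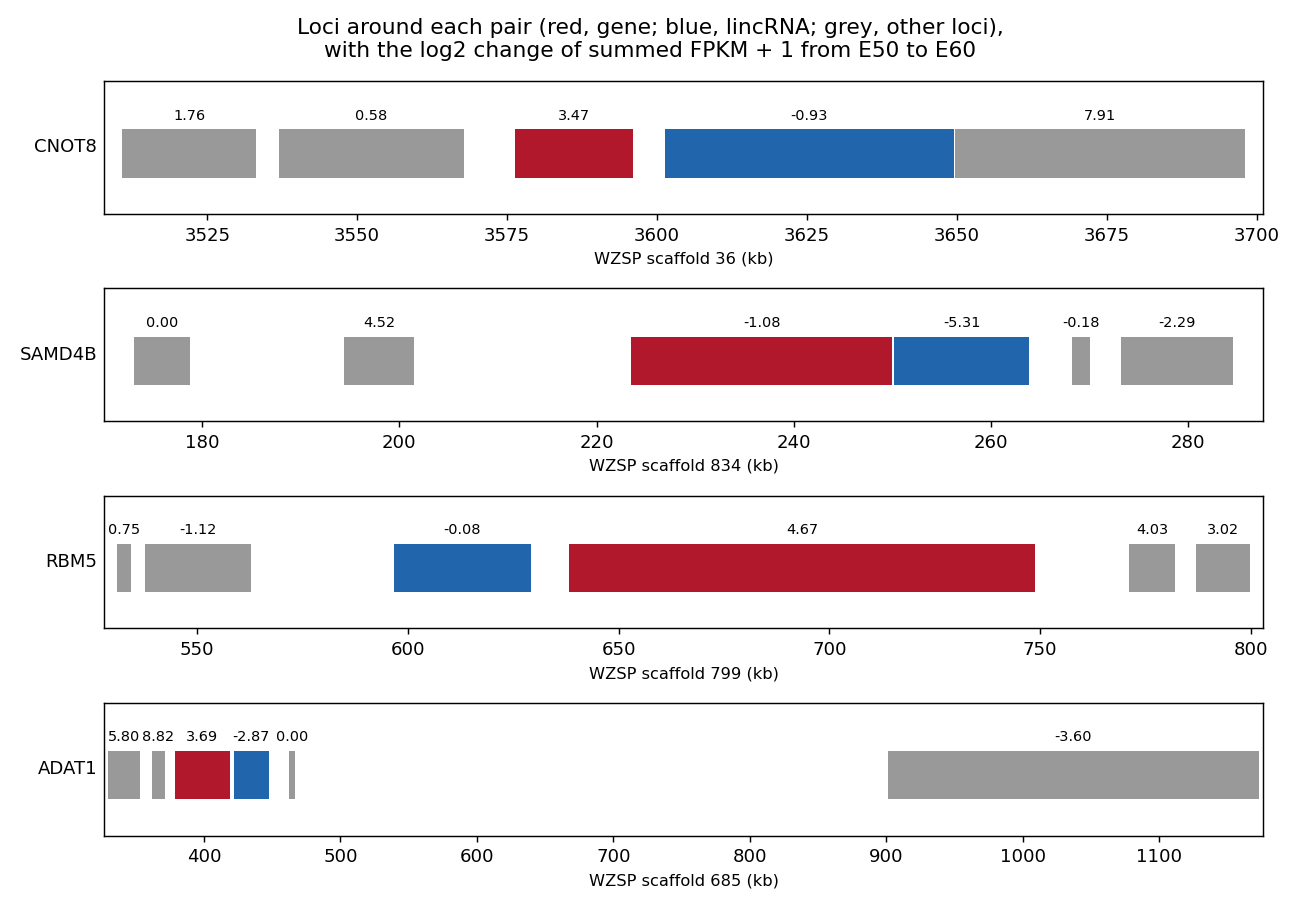
Positions (kb on WZSP scaffolds, each panel to its own scale) of the gene locus (red), the lincRNA locus (blue) and the nearest other loci (grey) of each pair, with the change in log2(summed FPKM + 1) from E50 to E60 above each locus. The SAMD4B locus, at -1.08, is the only gene locus below 0, and it and the lincRNA loci beside CNOT8, RBM5 and ADAT1 are above 0 when stages are scaled to the same summed FPKM.

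Transcripts of other loci with the most similar levels were found by the Euclidean distance in log2(FPKM + 1) over the 3 stages. For CNOT8 these were TCONS_00611814, at a distance of 0.16 with an FPKM of 2.30, 41.3 and 0.178, and TCONS_00430339 at 0.16. For SAMD4B they were TCONS_00452332 at 0.08 and TCONS_00154284 at 0.11. RBM5 was closest to TCONS_00999337 at 0.23 and TCONS_01046126 at 0.27, and ADAT1 to TCONS_00515265 at 0.06 and TCONS_00832599 at 0.08. Each distance rests on 3 values per transcript.

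Among the lincRNAs, that of CNOT8 was closest to TCONS_00933637 at 0.11 and TCONS_00560011 at 0.13, and that of RBM5 to TCONS_00949067 at 0.22 and TCONS_00496953 at 0.26. The SAMD4B lincRNA had TCONS_00681159 at 0.46 and TCONS_00669496 at 0.59. The ADAT1 lincRNA was closest to TCONS_00086983 at 0.73 and TCONS_01081357 at 0.76, the latter on scaffold 799, which also carries RBM5. Distances were thus greater for the 2 most abundant lincRNAs than for the other members.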

How the data were processed

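RNA was pooled within each stage and sequenced, and the reads were placed on the Wuzhishan pig (WZSP) assembly. The authors describe the cDNA libraries as normalised. They give the share of reads placed on WZSP separately for R1 and R2. For R1 this share was lower at E50 and E70 than at E60, and for R2 the stages were closer. Whether this difference between libraries bears on the differences between stages was not tested. The submitters' processing notes name TopHat, Cufflinks 1.0.3 and Cuffdiff, and the methods name a later Cufflinks release. The authors deposited FPKM for each transcript and stage, and the number of reads behind a transcript's value is unknown. Their table also holds a fold change, a test statistic, a p-value and a q-value per comparison, which were not used.

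Members and lists were chosen with earlier results of these data known. Changes were differences of log2(FPKM + 1). Where the comparisons list different values for a stage, the higher was used; no member was affected. Locus starts were converted to count from 1. Named are the 8 members, transcripts leading their locus at any stage, the 2 most similar transcripts per member, and neighbouring loci. Lists of complex partners and cell type markers were not analysed here, since the table pairs no transcript with a symbol. Alternatives were a pseudocount of 0.1, quantile normalization, median scaling, a 4-fold threshold, a filter at a mean FPKM of 1, locus sums and the lower of differing values. Scaling to equal summed FPKM was chosen after seeing the data. The calculations were tested on simulated data and ran in Python 3.11.15 with numpy 2.4.6, pandas 2.3.3 and matplotlib 3.10.9.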

Additional observations from a re-analysis of the deposited data

How the results depend on the processing

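No paired analysis was possible because each stage has 1 value, and no E70 sample could be left out for the same reason. The 16 changes of the members kept their sign under the other pseudocount and every scaling, but with equal summed FPKM the second step of the SAMD4B lincRNA was 0.02, practically no change, and that of the CNOT8 lincRNA 0.67, and with quantile normalization that of the ADAT1 gene transcript was -0.16. With quantile normalization, 2 gene transcripts were 2-fold or more higher at E60 than at E50 and 2 lower at E70 than at E60, and of all transcripts 30.8% were higher by as much and 27.0% lower at E60 than at E50, 30.3% lower and 25.2% higher at E70 than at E60, while the lincRNA locus beside RBM5 changed by 1.80 from E50 to E60. With median scaling, 4 lincRNA loci in place of 2 were 2-fold or more lower at E60 than at E50, and 4 in place of 3 higher at E70 than at E60. FPKM summed over the locus turned SAMD4B to -1.08 and 1.20. With equal summed FPKM, chosen after seeing the data, 1 lincRNA locus was 2-fold or more lower at E60 than at E50, 2 lincRNAs and 0 lincRNA loci were 2-fold or more higher at E70 than at E60, and of all transcripts 8.77% were lower by as much at E60 than at E50, with 7.87% higher at E70 than at E60. The locus changes that turned were then, in the first and second step, 2.70 and -3.54 for SAMD4B, 2.85 and -3.77 for the lincRNA locus beside CNOT8, 3.76 and -1.38 beside RBM5 and 0.97 and -1.57 beside ADAT1, with -0.38 from E60 to E70 beside SAMD4B. The median change of all transcripts from E50 to E60 was 0.06 with quantile normalization, 0.54 with median scaling and 4.00 with equal sums. The cause was not tested. Summed FPKM was 44747100 (E50), 3117180 (E60) and 88974300 (E70).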

Other observations

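The other 8 pairs of the list were selected on the same stages too, so nothing is read from their counts. Among them, the lincRNA locus was lower by 2-fold or more in summed FPKM at E60 than at E50 in 7, beside 17.1% of all loci. That count was taken in the FPKM as deposited and was not repeated under other scalings. It depends on the scaling, since the sum over all transcripts was 44747100 at E50 against 3117180 at E60. Scaling the stages to equal sums therefore raises E60 against E50. In 5 of the 8 the gene locus was higher by 2-fold or more at E60 than at E50, and in 3 it was lower by as much although the named transcript was higher, beside 48.9% and 17.1% of all loci, in the FPKM as deposited. Those 3, named after their values were seen, were RPN1 with a locus sum of 383 at E50 and 35.2 at E60, AP2M1 with 2017 and 938, and COG4 with 492 and 94.5. With the stages scaled to the same summed FPKM, chosen after seeing the data, these loci changed by 0.40, 2.74 and 1.46 on the log2(FPKM + 1) scale from E50 to E60, so their direction depends on the scaling, as it does at the SAMD4B locus. At E60 the named gene transcript was above its named lincRNA in all 8 of these pairs, whereas in the SAMD4B pair it was below. In locus sums at E60 the gene locus was above for AP2M1 (938 against 62.3) and COG4 (94.5 against 78.8). In the rest of these pairs the lincRNA locus was above, narrowly for RPN1 (37.5 against 35.2) and widely for NFE2L2 (1478 against 90.3). The SAMD4B pair thus did not stand apart by locus sums.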
